A study of Mus musculus with 14 samples.

Results

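The antioxidant genes described here are 51 listed mouse genes of the glutathione, NRF2, thioredoxin, peroxiredoxin and superoxide dismutase systems. A gene was taken where a probe set of the array carried exactly its symbol, and the probe set of highest mean over all 14 arrays stood for it. By this rule 49 of the 51 genes were measured, out of 19938 genes with such a probe set, and Prdx5 and Prdx6 were not analysed here. The cells were primary hepatic stellate cells (HSCs) from BalbC mice (Balb/cByJ in the study's methods), the liver pericytes that store retinoids when quiescent and become myofibroblasts on plastic. They were kept in medium with serum, and valproic acid (VPA), a histone deacetylase inhibitor, was added at 2.5 mM after unattached cells had been washed off. The groups were VPA4h (4 h with VPA, n = 3), Ctrl4h (4 h without, n = 3), Ctrl16h (16 h without, n = 2), VPA64h (64 h with VPA, n = 3) and Ctrl64h (64 h without, n = 3). No VPA group of 16 h was analysed here. Replicates were separate cell isolations according to the study's methods.

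Values are log2 levels of Affymetrix Mouse Gene 1.0 ST arrays, so a difference of 1 is 2-fold. Changes were tested with limma over all 23410 probe sets that name a gene, with the Benjamini-Hochberg adjustment taken over every one of them. The words rose and fell are kept for genes with an adjusted p under 0.05 and a change of at least 2-fold; changes with an adjusted p under 0.05 but under 2-fold are given as higher or lower. An error after a change is its standard error (SE) in that fit. Levels of different genes are not set against each other, since a probe's brightness depends on its sequence.

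Array medians lay between 6.34 and 6.41, and no pair of arrays held identical values. Within groups the lowest correlation between arrays over all probe sets was 0.993, and between groups the highest was 0.986. Of 14 stellate cell markers, at most 1 had a group mean below the array median in any group, and their summed level was 15.09 to 15.19 in VPA4h, 15.13 to 15.18 in Ctrl4h, 14.66 to 14.74 in Ctrl16h, 14.32 to 14.44 in VPA64h and 14.69 to 14.77 in Ctrl64h. Of 22 hepatocyte markers, 12 to 14 lay below it, with sums of 10.46 to 11.16, 10.55 to 11.09, 10.37 to 10.93, 9.99 to 10.70 and 10.05 to 10.79 in the same order of groups. In that order the sums of 20 sinusoidal endothelial markers were 13.08 to 13.14, 13.01 to 13.20, 12.48 to 12.57, 12.13 to 12.30 and 12.55 to 12.67. Those of 20 Kupffer cell and macrophage markers were 10.21 to 11, 10.38 to 11.12, 10.23 to 10.29, 10.44 to 11.01 and 10.61 to 11.33, with the Ctrl16h arrays at the low end. Those of 15 lymphocyte markers were 9.65 to 10.29, 9.74 to 10.37, 9.40 to 9.55, 9.03 to 9.24 and 9.05 to 9.10, lower at 16 h and 64 h than at 4 h. Those of 16 cholangiocyte, mesothelial and portal fibroblast markers were 10.26 to 10.46, 10.23 to 10.61, 10.46 to 10.56, 10.81 to 11.28 and 10.56 to 10.89, with the highest array in VPA64h. Their part in the results below was not tested, and in such bulk samples fewer cells of a type and less RNA per cell cannot be told apart.

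Glutathione is a small thiol that cells make from glutamate, cysteine and glycine and use to reduce peroxides and to tag reactive compounds for export. The transcription factor NRF2, encoded by Nfe2l2, is held in the cytoplasm by KEAP1 and destroyed there; oxidants and electrophiles release it, and with a small MAF protein it binds antioxidant response elements (AREs) in promoters of genes such as Nqo1, Hmox1, Gclm and Srxn1. The thioredoxin and peroxiredoxin systems remove peroxide in parallel with glutathione, and in the liver oxidative stress is a known companion of stellate cell activation.

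The core of the ARE, TGACNNNGC on either strand, was looked for in RefSeq promoter windows of 300 bases (250 before to 50 after the start site, build GRCm38.p6). Of the 51 genes, 44 had a window, and 11 held the core in at least 1 window: Nfe2l2, Maff, Mafg, Gclm, Gsta3, Gstm5, Mgst1, Txnrd1, Srxn1, Prdx1 and Sod1. Over all 27025 genes with a window, 14% held it. Hmox1, Gclc, Gsr, Gsta4, Gstt2, Prdx6 and Sod3 had no window. Matches of 7 of the 11 genes are shown, each written 5′ to 3′ in the motif's own direction with the core in capitals. Those of Nfe2l2, Gsta3, Prdx1 and Sod1 are not shown, though the levels of these genes are described below too.

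Maff: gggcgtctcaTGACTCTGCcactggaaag
Mafg: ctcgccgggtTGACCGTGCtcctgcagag
Gclm: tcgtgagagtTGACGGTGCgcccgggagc
Gstm5: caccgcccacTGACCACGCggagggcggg
Mgst1: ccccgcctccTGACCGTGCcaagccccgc
Txnrd1: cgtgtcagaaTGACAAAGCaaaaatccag
Srxn1: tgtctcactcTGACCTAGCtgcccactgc

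These stretches lie at chr15:79346499-79346527 (plus strand) for Maff, chr11:120633751-120633779 (plus) for Mafg, chr3:122245413-122245441 (minus) for Gclm and chr3:107895802-107895830 (plus) for Gstm5. Those of Mgst1, Txnrd1 and Srxn1 lie at chr6:138140461-138140489, chr10:82859104-82859132 and chr2:152105542-152105570, all on the minus strand. The Maff, Mafg and Gclm cores start 112, 222 and 134 bases before the start site of their window, those of Gstm5, Mgst1 and Txnrd1 42, 56 and 92 bases before it, and that of Srxn1 28 bases after it. Maff, Mgst1 and Txnrd1 also have windows at other start sites, and none of those held the core. The AP-1 motif TGANTCA, on either strand, occurred in the windows of 5 members (Gstm5, Gstp1, Mgst2, Srxn1 and Prdx1) and of 8.97% of all genes, and it overlapped an ARE core only in Prdx1. A match is a run of letters, not a measured binding site.

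Over the 49 measured genes, 30 rose or fell at least 2-fold in at least 1 of 7 comparisons, 18 passed the adjusted p in at least 1 but never with a 2-fold change, and Cbr3, a carbonyl reductase, passed in none. Counts over the 7 comparisons together were not made for all probe sets. Whether those of the 49 genes are unusual was therefore not tested. Most of the 2-fold changes came with time in culture. Between Ctrl64h and Ctrl4h 15 genes rose and 7 fell, against 6.68% rising and 3.71% falling of all probe sets tested. The 15 were mainly glutathione transferases, glutathione peroxidases and peroxiredoxins, and the 7 included Hmox1, Gclc, Gclm and Srxn1. With each array of the deposited values also centred on 10 housekeeping genes, the same comparison gave 9 that rose and 11 that fell. The median of all probe sets moved by -0.27, and no gene that rose or fell changed direction. Such centring shifts each array by a constant and was added on top of the authors' normalisation, not in place of it. At any size 22 genes were higher and 14 lower (25% and 31.6% of all probe sets), or 20 and 23 with housekeeping centring. The median change of the 49 genes was 0.07, beside -0.09 for all probe sets.

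**Figure D1:**
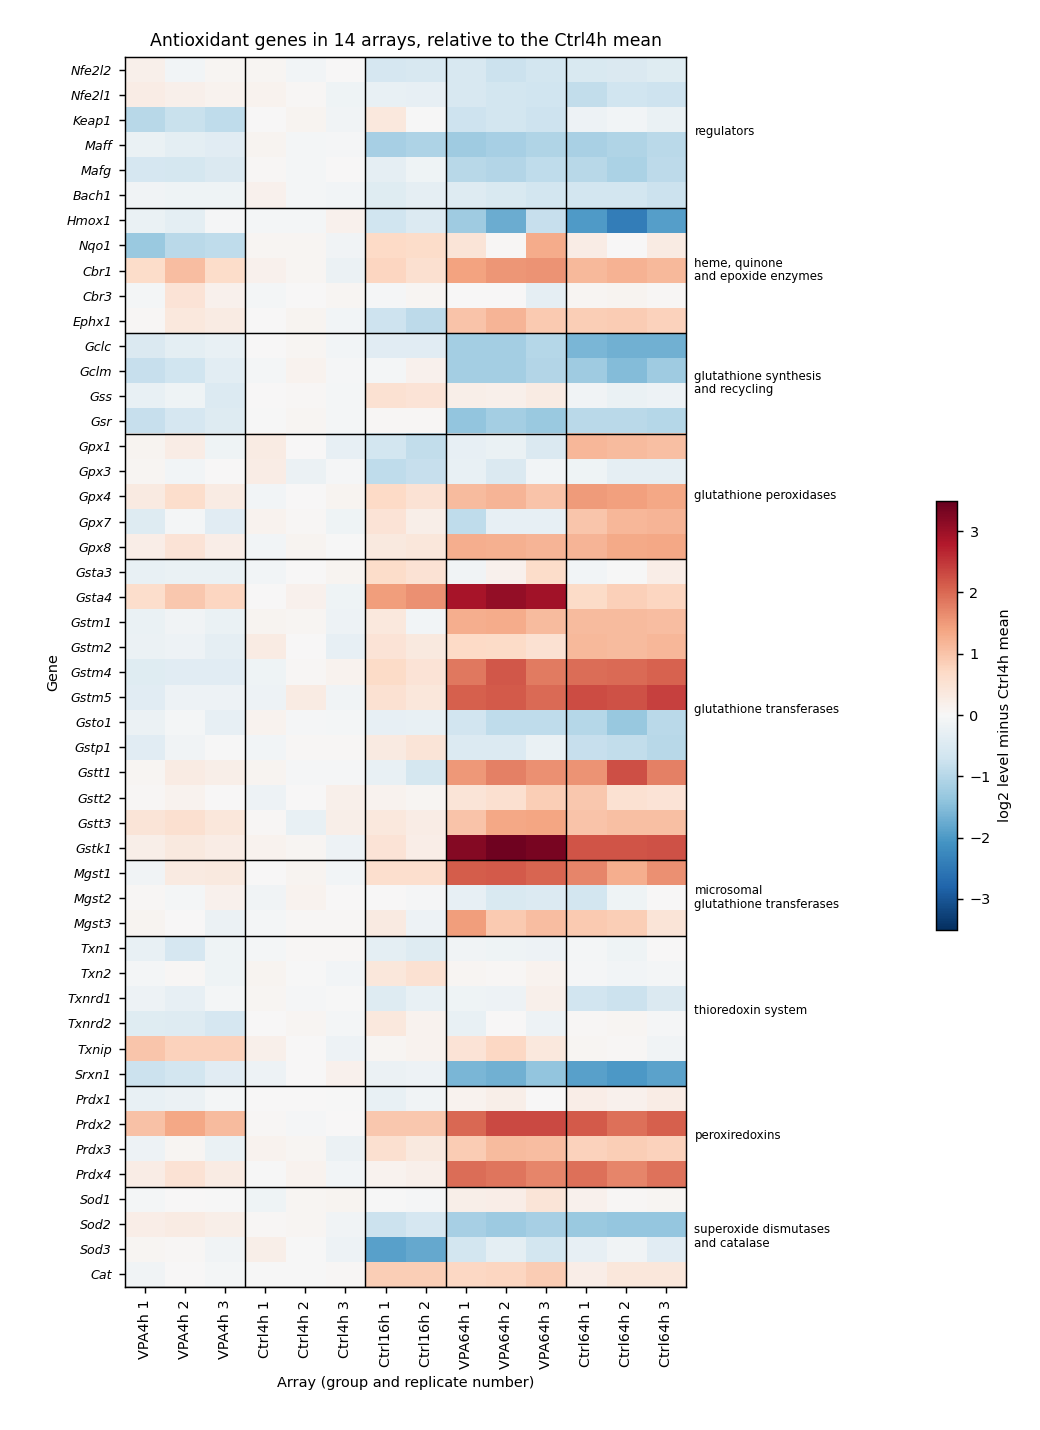
Each row is a measured antioxidant gene, grouped by role, and each column an array; colour gives the log2 level minus the gene's mean in Ctrl4h. In both 64 h groups the glutathione transferases Gstm4, Gstm5, Gstt1 and Gstk1 stood above Ctrl4h in every array, and Hmox1, Gclc, Gclm and Srxn1 below it.

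VPA changed fewer of these genes at least 2-fold. In VPA4h against Ctrl4h Prdx2 rose and Nqo1 fell, beside 0.867% and 0.555% of all probe sets, and in VPA64h against Ctrl64h Gsta4 and Gstk1 rose and Gpx1 and Gpx7 fell, beside 1% and 1.14%. At any size 9 genes were higher and 12 lower in VPA4h (11.5% and 9.96% of all probe sets), and 11 higher and 6 lower in VPA64h (12.8% and 11.2%). With housekeeping centring the split in VPA64h was 23 higher and 4 lower, and the median of all probe sets moved by 0.14. The VPA effect at 64 h differed from that at 4 h by at least 2-fold for 5 genes (Hmox1, Nqo1 and Gsta4 upwards, Gpx1 and Gpx7 downwards), beside 0.893% and 1.7% of all probe sets in those directions. With housekeeping centring 5 differed upwards and 2 downwards.

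Among the regulators, all but Keap1 were lower in Ctrl64h than in Ctrl4h, Maff by 2-fold. Of all probe sets 31.6% were lower in that comparison. With housekeeping centring Mafg (-1.26) and Nfe2l1 (-1.03) passed 2-fold too, and Keap1 was lower (-0.44, adjusted p = 0.00127). Maff encodes a small MAF protein, the partner with which NRF2 binds DNA. Its level was 9.46, 9.29 and 9.31 in Ctrl4h, 8.19 and 8.28 in Ctrl16h and 8.22, 8.31 and 8.42 in Ctrl64h. It had already fallen at 16 h (Ctrl16h minus Ctrl4h, -1.12 ± 0.10, adjusted p = 1.11e-06) and stayed there (Ctrl64h minus Ctrl4h, -1.04 ± 0.09, adjusted p = 5.94e-08), with no overlap of Ctrl4h with either later group. The call at 64 h was lost without Ctrl4h replicate 1 or without Ctrl64h replicate 1 (-0.99 each).

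Mafg, another small MAF, came close to the 2-fold limit in Ctrl64h against Ctrl4h (-0.99 ± 0.08, adjusted p = 6.6e-08). Nfe2l2 itself was lower by a smaller amount (-0.49 ± 0.09, adjusted p = 0.000225), as were Nfe2l1, a related factor (-0.76), and Bach1, the repressor that competes with NRF2 for AREs (-0.68). In VPA4h Nfe2l2 was at 9.94, 9.67 and 9.85, against 9.84, 9.67 and 9.79 in Ctrl4h, and in VPA64h at 9.20, 9.02 and 9.12, against 9.23, 9.26 and 9.35 in Ctrl64h. Neither difference passed (0.05 ± 0.09, adjusted p = 0.788, and -0.17 ± 0.09, adjusted p = 0.199).

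Keap1 was the only regulator that differed with VPA at both times. It was at 7.22, 7.42 and 7.31 in VPA4h, against 8.20, 8.29 and 8.08 in Ctrl4h (-0.87 ± 0.10, adjusted p = 8.16e-06). With VPA for 64 h it stood at 7.46, 7.55 and 7.47, against 8.0, 8.09 and 7.96 in Ctrl64h (-0.52 ± 0.10, adjusted p = 0.00114). The groups did not overlap at either time, and the change between Ctrl64h and Ctrl4h did not pass (-0.18 ± 0.10, adjusted p = 0.139). Mafg was also lower in VPA4h (-0.57 ± 0.08, adjusted p = 9.82e-05) but not in VPA64h (0.02 ± 0.08), and the 2 effects differed (0.58 ± 0.12, adjusted p = 0.00278). Maff was lower in VPA4h too (-0.32 ± 0.09, adjusted p = 0.0137) and did not pass in VPA64h (-0.11 ± 0.09, adjusted p = 0.414). For Maff the difference between the effects did not pass (0.21 ± 0.12, adjusted p = 0.307).

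Hmox1, heme oxygenase 1, which breaks heme down to biliverdin, iron and carbon monoxide, showed the steepest fall of the list in control culture. Its level was 12.53, 12.51 and 12.74 in Ctrl4h, 11.90 and 12.10 in Ctrl16h and 10.62, 10.16 and 10.67 in Ctrl64h. Most of the 4.32-fold fall between Ctrl64h and Ctrl4h (-2.11 ± 0.18, adjusted p = 9.71e-08) came after 16 h (Ctrl64h minus Ctrl16h, -1.51 ± 0.21, adjusted p = 2.56e-05). With VPA the fall was smaller: 11.35, 10.86 and 11.78 in VPA64h, against 12.36, 12.25 and 12.56 in VPA4h (-1.06 ± 0.18, adjusted p = 0.000187).

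At 64 h every VPA array therefore lay above every control array for Hmox1 (VPA64h minus Ctrl64h, 0.85 ± 0.18, adjusted p = 0.00307), while VPA4h and Ctrl4h overlapped (-0.21 ± 0.18, adjusted p = 0.542). The difference between the 2 VPA effects was 1.05 ± 0.26 (adjusted p = 0.011). It kept its sign but was under 2-fold without any of 4 arrays, Ctrl4h replicate 3, VPA4h replicate 2, Ctrl64h replicate 2 or VPA64h replicate 3 (lowest 0.83).

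Nqo1, a quinone reductase that is a standard readout of NRF2 activity, behaved differently from Hmox1. Its level was 5.87, 6.23 and 6.27 in VPA4h, against 7.23, 7.24 and 7.03 in Ctrl4h, a fall of 2.06-fold with no overlap (-1.04 ± 0.22, adjusted p = 0.00215). Without VPA4h replicate 1, the lowest array, it was -0.91 (adjusted p = 0.0157). At 64 h the groups overlapped, with 7.60, 7.21 and 8.47 in VPA64h and 7.42, 7.17 and 7.44 in Ctrl64h (0.42 ± 0.22, adjusted p = 0.195).

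The VPA effects on Nqo1 at 64 h and 4 h differed by 1.46 ± 0.31 (adjusted p = 0.00396), and VPA64h stood 3.11-fold above VPA4h (1.64 ± 0.22, adjusted p = 1.44e-05). In control culture, with 7.85 and 7.79 in Ctrl16h, no change of Nqo1 passed in the fit without a block. Ctrl16h minus Ctrl4h was 0.65 in that fit (adjusted p = 0.0759) and 0.76 with the replicate number as a block (adjusted p = 0.0354). Ctrl64h minus Ctrl4h was 0.18 ± 0.22 and turned to -0.09 with housekeeping centring.

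The other phase I and reductase genes mostly rose. Cbr1, a carbonyl reductase, was at 7.40, 7.31 and 7.04 in Ctrl4h, 8.0 and 7.80 in Ctrl16h and 8.39, 8.48 and 8.39 in Ctrl64h (Ctrl64h minus Ctrl4h, 1.17 ± 0.12, adjusted p = 7.1e-07; 0.90 with housekeeping centring). It was also higher in VPA4h than in Ctrl4h, at 7.90, 8.34 and 7.89 (0.79 ± 0.12, adjusted p = 0.000153). Its VPA64h arrays were at 8.66, 8.79 and 8.83 (0.34 ± 0.12 over Ctrl64h, adjusted p = 0.0558, but 0.48 and 0.00655 with housekeeping centring, and 0.0354 with the replicate number as a block within each time). Ephx1, microsomal epoxide hydrolase, dipped before it rose.

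The Ephx1 level was 9.92, 10.00 and 9.82 in Ctrl4h, 9.19 and 9.0 in Ctrl16h and 10.77, 10.81 and 10.71 in Ctrl64h. It was lower by 0.82 ± 0.11 in Ctrl16h than in Ctrl4h (adjusted p = 8.74e-05; -1.03 with housekeeping centring) and rose 3.17-fold after that (Ctrl64h minus Ctrl16h, 1.67 ± 0.11, adjusted p = 2.19e-08), with no overlap at either step. VPA did not shift Ephx1 at either time by an amount that passed (0.23 ± 0.10 at 4 h and 0.18 ± 0.10 at 64 h), except at 64 h with housekeeping centring (0.32, adjusted p = 0.0315). Cbr3 stayed between 6.70 and 7.5 in all 14 arrays.

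Of the 4 genes of glutathione synthesis and recycling, Gclc, Gclm and Gsr fell after 16 h in control culture, and Gss was lower by less than 2-fold. Of all probe sets 2.08% fell in Ctrl64h against Ctrl16h. Gclc and Gclm encode the catalytic and the modifier subunit of glutamate-cysteine ligase, the rate-limiting enzyme of glutathione synthesis. Gclc was at 9.95, 10.01 and 9.85 in Ctrl4h, 9.55 and 9.53 in Ctrl16h and 8.35, 8.25 and 8.27 in Ctrl64h, a fall of 3.13-fold in Ctrl64h against Ctrl4h (-1.65 ± 0.09, adjusted p = 3.5e-10). Gclm was at 10.48, 10.68 and 10.51 in Ctrl4h, 10.50 and 10.70 in Ctrl16h and 9.32, 9.04 and 9.31 in Ctrl64h, a fall of 2.52-fold (-1.33 ± 0.12, adjusted p = 9.94e-08). Both subunits fell at least 2-fold after 16 h (Ctrl64h minus Ctrl16h, -1.25 ± 0.10 for Gclc and -1.38 ± 0.13 for Gclm), and their groups did not overlap.

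Gsr, glutathione reductase, which regenerates reduced glutathione, was at 9.53, 9.62 and 9.47 in Ctrl4h, 9.57 and 9.59 in Ctrl16h and 8.60, 8.59 and 8.54 in Ctrl64h. Its fall after 16 h was at the 2-fold limit (Ctrl64h minus Ctrl16h, -1.01 ± 0.10, adjusted p = 1.65e-06; -0.99 without Ctrl64h replicate 3). Gss, glutathione synthetase, was higher in Ctrl16h than in Ctrl4h (0.51 ± 0.10, adjusted p = 0.00127) and lower again in Ctrl64h than in Ctrl16h (-0.68 ± 0.10, adjusted p = 4.18e-05).

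All 4 of these genes were lower in VPA4h than in Ctrl4h, each by less than 2-fold and each with no overlap between groups. Of all probe sets 9.96% were lower in that comparison by the adjusted p. The share of all probe sets without overlap between the groups was not counted. Gclc was at 9.43, 9.61 and 9.67 in VPA4h (-0.37 ± 0.09 from Ctrl4h, adjusted p = 0.00525), and Gclm at 9.75, 9.86 and 10.18 (-0.63 ± 0.12, adjusted p = 0.000822). Gsr was at 8.73, 8.95 and 9.08 (-0.62 ± 0.09, adjusted p = 0.000118) and Gss was lower by 0.29 ± 0.09 (adjusted p = 0.0262, but 0.0564 with housekeeping centring). At 64 h the pattern was mixed.

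Gclc stood at 8.75, 8.76 and 8.94 in VPA64h, above Ctrl64h in every array (0.53 ± 0.09, adjusted p = 0.000341), and Gss was higher by 0.40 ± 0.09 (adjusted p = 0.00306). Gclm, at 9.37, 9.37 and 9.54, did not pass (0.20 ± 0.12, adjusted p = 0.239), but did with housekeeping centring (0.34, adjusted p = 0.0355). Gsr was lower in VPA64h, at 8.16, 8.36 and 8.25 (-0.32 ± 0.09, adjusted p = 0.0206), which did not pass with housekeeping centring (-0.18, adjusted p = 0.178). The VPA effects at 64 h and 4 h differed for Gclc (0.89 ± 0.12, adjusted p = 0.000129), Gclm (0.83 ± 0.17, adjusted p = 0.00253) and Gss (0.69 ± 0.12, adjusted p = 0.00113). For Gsr the difference did not pass (0.30 ± 0.13, adjusted p = 0.143), but did with housekeeping centring (0.41, adjusted p = 0.0487).

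**Figure D2:**
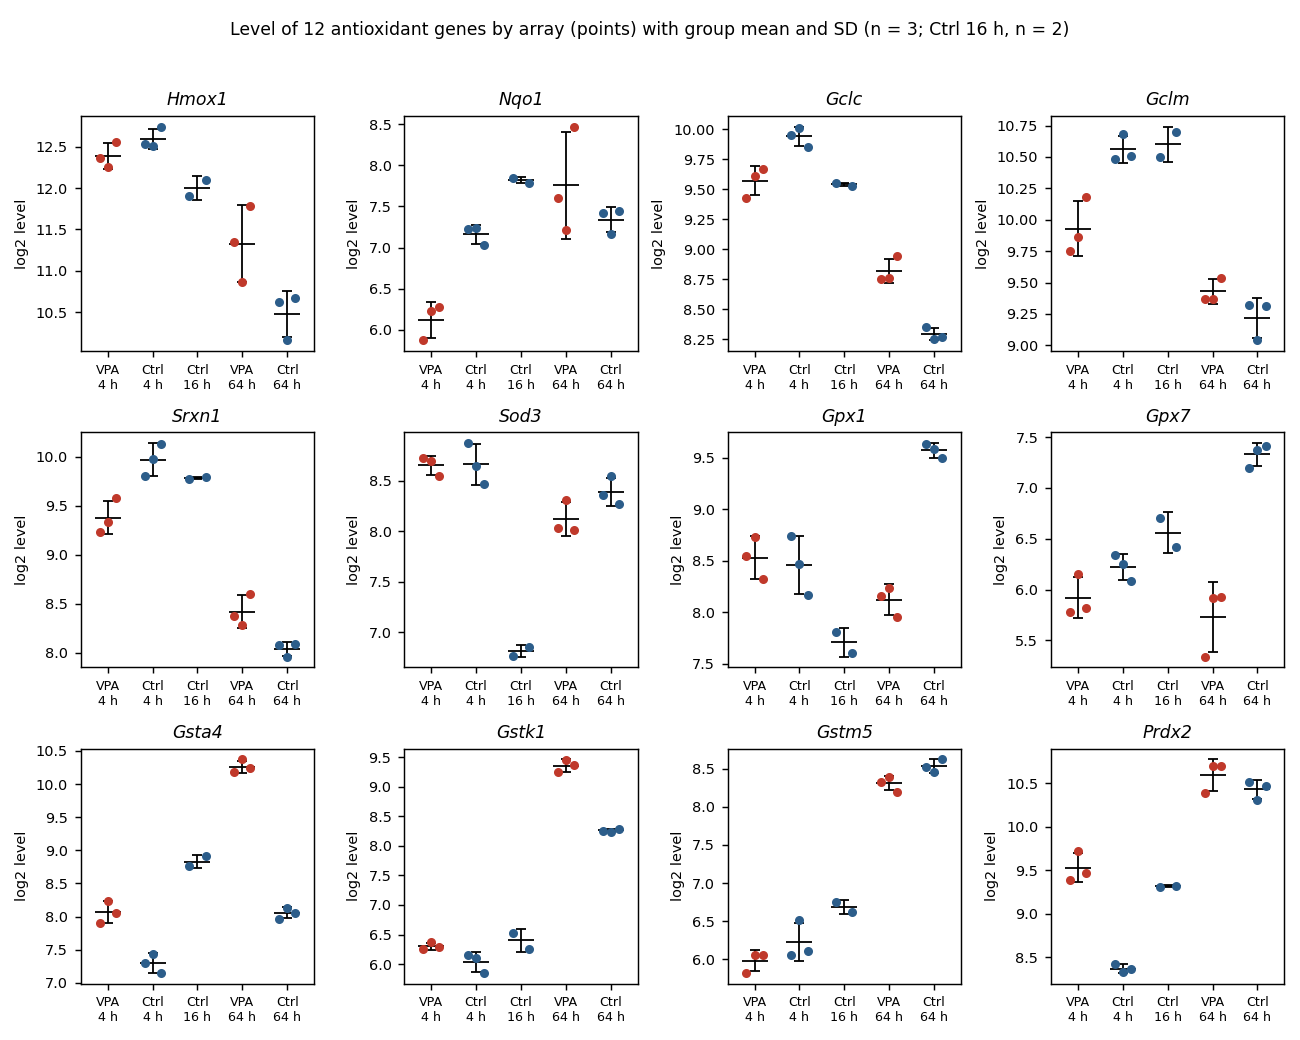
Points are arrays (VPA red, control blue), horizontal lines group means and bars SDs, on the log2 scale, for 12 genes in VPA4h, Ctrl4h, Ctrl16h, VPA64h and Ctrl64h. Gsta4 and Gstk1 were higher, and Gpx1 and Gpx7 lower, in every VPA64h array than in any Ctrl64h array; Sod3 was lowest in Ctrl16h.

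Glutathione peroxidases, which reduce hydrogen peroxide and lipid peroxides, rose in control culture in 4 of 5 measured genes and differed among themselves in VPA64h. Of all probe sets 6.68% rose in Ctrl64h against Ctrl4h. Gpx1, the main cytosolic selenium-dependent peroxidase, was at 8.74, 8.47 and 8.17 in Ctrl4h, 7.81 and 7.61 in Ctrl16h and 9.63, 9.58 and 9.5 in Ctrl64h. It was lower in Ctrl16h than in Ctrl4h (-0.75 ± 0.15, adjusted p = 0.00191) and then rose 3.64-fold (Ctrl64h minus Ctrl16h, 1.86 ± 0.15, adjusted p = 1.34e-07). In VPA64h it was at 8.16, 8.24 and 7.95, a fall of 2.73-fold against Ctrl64h (-1.45 ± 0.14, adjusted p = 1.61e-06).

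In VPA4h Gpx1 was at 8.55, 8.73 and 8.32 and overlapped Ctrl4h (0.08 ± 0.14, adjusted p = 0.802), so that the 2 VPA effects differed by -1.52 ± 0.19 (adjusted p = 5.94e-05). Over culture Gpx1 rose in Ctrl64h against Ctrl4h (1.11 ± 0.14, adjusted p = 3.9e-06; 0.84 with housekeeping centring and 0.97 without Ctrl4h replicate 3), whereas VPA64h lay under VPA4h (-0.42 ± 0.14, adjusted p = 0.0186).

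Gpx7, a peroxidase of the endoplasmic reticulum, also rose in control culture and fell in VPA64h, without the dip at 16 h. It was at 6.34, 6.25 and 6.08 in Ctrl4h, 6.70 and 6.42 in Ctrl16h and 7.20, 7.37 and 7.41 in Ctrl64h (Ctrl64h minus Ctrl4h, 1.11 ± 0.15, adjusted p = 1.05e-05; 0.84 with housekeeping centring). Its VPA64h arrays lay at 5.34, 5.92 and 5.93, a fall of 3.03-fold against Ctrl64h (-1.60 ± 0.15, adjusted p = 1.48e-06). VPA4h, at 5.78, 6.15 and 5.82, overlapped Ctrl4h (-0.31 ± 0.15, adjusted p = 0.184), and the 2 effects differed by -1.29 ± 0.21 (adjusted p = 0.000499).

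Gpx4, which reduces lipid hydroperoxides in membranes and guards against ferroptosis, was at 9.44, 9.53 and 9.62 in Ctrl4h, 10.22 and 10.03 in Ctrl16h and 11.03, 10.97 and 10.88 in Ctrl64h (Ctrl64h minus Ctrl4h, 1.43 ± 0.10, adjusted p = 9.08e-09). VPA4h was higher than Ctrl4h, at 9.85, 10.15 and 9.82 (0.41 ± 0.10, adjusted p = 0.00647), but VPA64h was lower than Ctrl64h, at 10.63, 10.73 and 10.52 (-0.33 ± 0.10, adjusted p = 0.0246). The change at 64 h did not pass with housekeeping centring (-0.20, adjusted p = 0.2). The difference between the 2 effects passed (-0.75 ± 0.14, adjusted p = 0.00186). A second probe set of Gpx4 gave 0.38 and -0.35 for the same VPA comparisons.

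Gpx8, a membrane peroxidase of the endoplasmic reticulum, was at 8.86, 9.06 and 8.95 in Ctrl4h, 9.29 and 9.35 in Ctrl16h and 10.16, 10.29 and 10.31 in Ctrl64h (Ctrl64h minus Ctrl4h, 1.29 ± 0.09, adjusted p = 6.81e-09). Unlike Gpx1 and Gpx7 it did not differ in VPA64h by an amount that passed, at 10.24, 10.20 and 10.16 (-0.05 ± 0.09, adjusted p = 0.74). Gpx8 was higher in VPA4h than in Ctrl4h (0.32 ± 0.09, adjusted p = 0.0148). Gpx3, the secreted plasma peroxidase, was lower in Ctrl16h than in Ctrl4h (-0.85 ± 0.13, adjusted p = 0.000235) and higher in Ctrl64h than in Ctrl16h (0.59 ± 0.13, adjusted p = 0.00211).

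Glutathione transferases, which join glutathione to electrophiles, made up the largest group. Of the 12 cytosolic and mitochondrial members measured, 7 rose and 1 fell in Ctrl64h against Ctrl4h, beside 6.68% and 3.71% of all probe sets. In VPA64h against VPA4h 6 rose and none fell by 2-fold. In that last comparison, over all members, 12 rose and 2 fell, beside 5.26% and 2.29% of all probe sets, and at any size 25 were higher and 16 lower (23.2% and 27.1%). Probe sets of the mu class may read closely similar paralogs in common.

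Gstm5, a mu class transferase, was at 6.06, 6.52 and 6.11 in Ctrl4h, 6.75 and 6.62 in Ctrl16h and 8.52, 8.45 and 8.62 in Ctrl64h, the largest rise in control culture among the 49 genes (Ctrl64h minus Ctrl4h, 2.30 ± 0.12, adjusted p = 2.29e-10). With VPA it rose alike, to 8.33, 8.39 and 8.20 in VPA64h, against 5.82, 6.05 and 6.06 in VPA4h (2.33 ± 0.12, adjusted p = 3.55e-10). The difference of the VPA effects between times was 0.03 ± 0.16 (adjusted p = 0.946).

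Gstm4 was at 6.80, 6.98 and 7.07 in Ctrl4h, 7.62 and 7.43 in Ctrl16h and 8.91, 8.94 and 9.01 in Ctrl64h (Ctrl64h minus Ctrl4h, 2.00 ± 0.10, adjusted p = 2.85e-10). It was at 8.79, 9.12 and 8.76 in VPA64h and 6.53, 6.54 and 6.54 in VPA4h (2.36 ± 0.10, adjusted p = 1.14e-10), and VPA4h lay under Ctrl4h (-0.42 ± 0.10, adjusted p = 0.00682). Both mu class genes made most of the rise after 16 h (Ctrl64h minus Ctrl16h, 1.84 ± 0.13 for Gstm5 and 1.43 ± 0.12 for Gstm4).

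Gstm1 and Gstm2 rose by about the 2-fold limit. Gstm1 was at 9.88, 9.87 and 9.62 in Ctrl4h, 10.16 and 9.69 in Ctrl16h and 10.89, 10.91 and 10.87 in Ctrl64h (Ctrl64h minus Ctrl4h, 1.10 ± 0.11, adjusted p = 4.53e-07; 0.83 with housekeeping centring). In VPA64h Gstm1 was at 11.06, 11.09 and 10.91, against 9.55, 9.67 and 9.56 in VPA4h (1.43 ± 0.11, adjusted p = 3.61e-08).

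Gstm2 was at 9.18, 8.92 and 8.61 in Ctrl4h, 9.39 and 9.23 in Ctrl16h and 10.04, 10.01 and 10.07 in Ctrl64h (Ctrl64h minus Ctrl4h, 1.14 ± 0.12, adjusted p = 5.02e-07; 0.87 with housekeeping centring and 0.99 without Ctrl4h replicate 3). It was the mu class member that was lower in VPA64h, at 9.60, 9.58 and 9.43 (-0.50 ± 0.12 from Ctrl64h, adjusted p = 0.00442).

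Gsta4, the alpha class transferase that clears 4-hydroxynonenal, a product of lipid peroxidation, showed the largest VPA response of the 49 genes. It was at 10.18, 10.37 and 10.24 in VPA64h, against 7.97, 8.13 and 8.06 in Ctrl64h, a rise of 4.62-fold (2.21 ± 0.10, adjusted p = 5.26e-09). It was already higher in VPA4h, at 7.91, 8.23 and 8.06, against 7.30, 7.44 and 7.15 in Ctrl4h (0.77 ± 0.10, adjusted p = 3.35e-05), and the 2 effects differed by 1.44 ± 0.14 (adjusted p = 7.97e-06). In control culture Gsta4 peaked at 16 h.

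With 8.76 and 8.91 in Ctrl16h, Gsta4 rose 2.91-fold over Ctrl4h (1.54 ± 0.11, adjusted p = 2.27e-07), the only member to rise 2-fold in that comparison, where 0.705% of all probe sets rose. It was lower again in Ctrl64h than in Ctrl16h (-0.78 ± 0.11, adjusted p = 4.62e-05). All VPA64h arrays lay above the Ctrl16h peak. Gsta3, another alpha class gene, was higher in Ctrl16h than in Ctrl4h (0.56 ± 0.16, adjusted p = 0.0198; 0.35 and 0.113 with housekeeping centring) and did not pass in either VPA comparison.

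Gstk1, the kappa class transferase of mitochondria and peroxisomes, rose in culture and rose further with VPA. It was at 6.15, 6.11 and 5.85 in Ctrl4h, 6.53 and 6.26 in Ctrl16h and 8.25, 8.24 and 8.28 in Ctrl64h (Ctrl64h minus Ctrl4h, 2.22 ± 0.10, adjusted p = 6.56e-11). In VPA64h it was at 9.24, 9.45 and 9.36, a rise of 2.13-fold over Ctrl64h (1.09 ± 0.10, adjusted p = 1.13e-06). In VPA4h it was at 6.25, 6.37 and 6.29 (0.26 ± 0.10 over Ctrl4h, adjusted p = 0.0723). The rise of 8.28-fold in VPA64h over VPA4h (3.05 ± 0.10, adjusted p = 1.18e-11) was the largest change of any member in any comparison.

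The theta class gene Gstt1 was at 6.86, 6.72 and 6.72 in Ctrl4h, 6.5 and 6.15 in Ctrl16h and 8.34, 9.03 and 8.52 in Ctrl64h, so that its rise came wholly after 16 h (Ctrl64h minus Ctrl16h, 2.30 ± 0.16, adjusted p = 2.68e-08). VPA64h, at 8.29, 8.52 and 8.38, overlapped Ctrl64h (-0.23 ± 0.14, adjusted p = 0.28) and lay above VPA4h, at 6.84, 7.07 and 6.97 (1.44 ± 0.14, adjusted p = 6.27e-07). Gstt3 was at 6.18, 5.88 and 6.35 in Ctrl4h, 6.51 and 6.40 in Ctrl16h and 7.14, 7.19 and 7.18 in Ctrl64h. Its rise was close to the limit (Ctrl64h minus Ctrl4h, 1.03 ± 0.12, adjusted p = 2.14e-06, but 0.77 with housekeeping centring and 0.91 without Ctrl4h replicate 2). Gstt3 was also higher in VPA4h than in Ctrl4h (0.48 ± 0.12, adjusted p = 0.00769). Gstt2 was higher by 0.65 ± 0.13 in Ctrl64h than in Ctrl4h (adjusted p = 0.000446).

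Members of 2 other classes went down. Gsto1, the omega class transferase, was at 9.04, 8.89 and 8.85 in Ctrl4h, 8.63 and 8.66 in Ctrl16h and 7.92, 7.60 and 7.98 in Ctrl64h (Ctrl64h minus Ctrl4h, -1.09 ± 0.11, adjusted p = 2.83e-07; -0.98 without Ctrl64h replicate 2). Gstp1, the pi class transferase, was at 11.58, 11.72 and 11.73 in Ctrl4h, 12 and 12.13 in Ctrl16h and 10.86, 10.82 and 10.71 in Ctrl64h, a fall of 2.40-fold after 16 h (Ctrl64h minus Ctrl16h, -1.27 ± 0.12, adjusted p = 5.38e-07). In VPA64h Gstp1 was at 11.21, 11.20 and 11.45, above every Ctrl64h array (0.49 ± 0.11, adjusted p = 0.00278). Other probe sets that name Gstp1 also name Gstp2, so signal of the pair may be shared.

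Of the microsomal transferases, which protect membranes, Mgst1 was at 6.58, 6.67 and 6.48 in Ctrl4h, 7.17 and 7.16 in Ctrl16h and 8.28, 7.85 and 8.19 in Ctrl64h (Ctrl64h minus Ctrl4h, 1.53 ± 0.13, adjusted p = 4.9e-08). It was higher still in VPA64h, at 8.71, 8.73 and 8.62 (0.58 ± 0.13 over Ctrl64h, adjusted p = 0.00302), against 6.45, 6.90 and 6.91 in VPA4h. Mgst3 rose 2-fold only between VPA64h, at 7.43, 6.89 and 7.06, and VPA4h, at 6.08, 5.99 and 5.78 (1.18 ± 0.15, adjusted p = 1.14e-05). In Ctrl64h Mgst3 was at 6.90, 6.83 and 6.43, against 5.92, 6.01 and 6.01 in Ctrl4h (0.74 ± 0.15, adjusted p = 0.000774), and 6.29 and 5.81 in Ctrl16h. Mgst2 was lower in VPA64h than in VPA4h (-0.48 ± 0.13, adjusted p = 0.00669) and, apart from Ctrl64h against Ctrl4h with housekeeping centring (-0.53, adjusted p = 0.00205), passed in no other comparison.

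**Figure D3:**
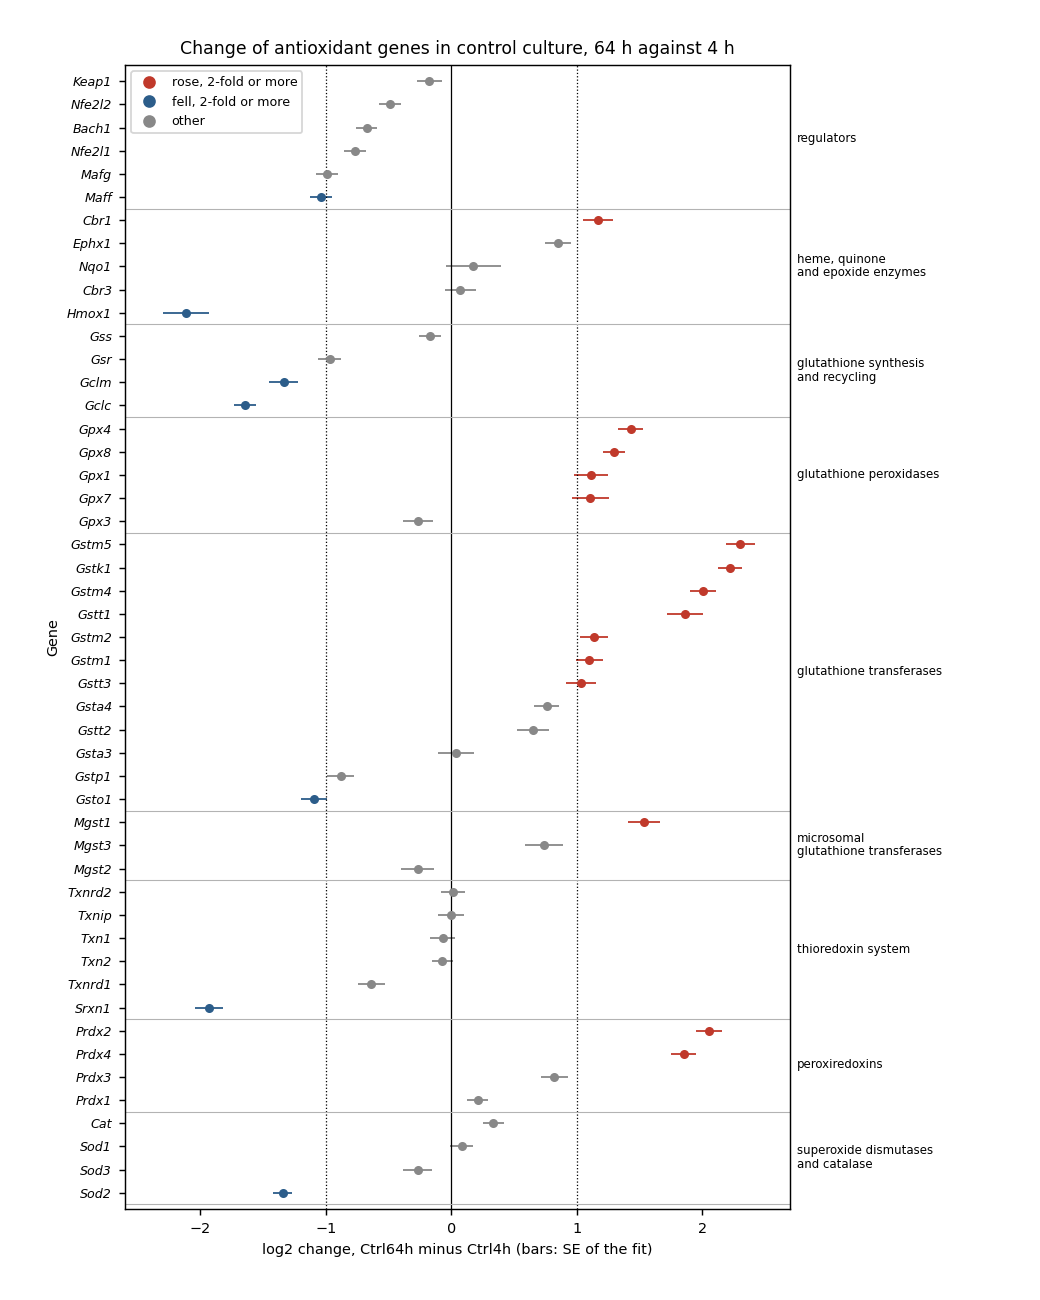
Points give the log2 change in Ctrl64h minus Ctrl4h for each measured antioxidant gene, grouped by role, with bars for the SE; dotted lines mark 2-fold. Of the 49 genes 15 rose (red) and 7 fell (blue), from -2.11 for Hmox1 to 2.30 for Gstm5.

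In the thioredoxin system, Srxn1, sulfiredoxin, which repairs overoxidised peroxiredoxins, was the only gene to pass the 2-fold limit. It was at 9.80, 9.98 and 10.13 in Ctrl4h, 9.77 and 9.79 in Ctrl16h and 8.08, 7.96 and 8.09 in Ctrl64h, a fall of 3.80-fold (Ctrl64h minus Ctrl4h, -1.93 ± 0.11, adjusted p = 9.41e-10). Nearly all of it came after 16 h (Ctrl64h minus Ctrl16h, -1.74 ± 0.12, adjusted p = 3.39e-08). VPA4h was lower than Ctrl4h, at 9.23, 9.34 and 9.58 (-0.58 ± 0.11, adjusted p = 0.000903), and VPA64h higher than Ctrl64h, at 8.38, 8.28 and 8.60 (0.38 ± 0.11, adjusted p = 0.0203). Neither pair overlapped, and the 2 effects differed by 0.96 ± 0.16 (adjusted p = 0.000518).

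Txnrd1, the cytosolic thioredoxin reductase, was lower in Ctrl64h than in Ctrl4h (-0.64 ± 0.11, adjusted p = 0.000114). In VPA64h it was at 11.03, 10.99 and 11.37, against 10.52, 10.43 and 10.68 in Ctrl64h (0.58 ± 0.11, adjusted p = 0.000865), and in VPA4h at 11.01, 10.90 and 11.12, against 11.25, 11.13 and 11.16 in Ctrl4h (-0.17 ± 0.11, adjusted p = 0.342). The effects differed by 0.75 ± 0.15 (adjusted p = 0.00276). Txnrd2, the mitochondrial reductase, was lower in VPA4h (-0.49 ± 0.10, adjusted p = 0.00107).

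Txnip, the inhibitor that binds thioredoxin, was higher with VPA at both times. It was at 11.07, 10.91 and 10.92 in VPA4h, against 10.27, 10.11 and 9.93 in Ctrl4h (0.87 ± 0.11, adjusted p = 1.68e-05). In VPA64h it was at 10.58, 10.82 and 10.46, against 10.17, 10.13 and 9.99 in Ctrl64h (0.52 ± 0.11, adjusted p = 0.00173). The groups did not overlap, and Ctrl64h minus Ctrl4h was 0.00 ± 0.11 (-0.27 with housekeeping centring). Txn1, cytosolic thioredoxin, was lower in VPA4h (-0.33 ± 0.10, adjusted p = 0.0255, but 0.0617 with housekeeping centring), and Txn2, its mitochondrial counterpart, was higher in Ctrl16h than in Ctrl4h (0.48 ± 0.09, adjusted p = 0.00126) and lower in Ctrl64h than in Ctrl16h (-0.55 ± 0.09, adjusted p = 0.000163).

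All 4 measured peroxiredoxins, the thiol peroxidases that thioredoxin recharges, were higher in Ctrl64h than in Ctrl4h, Prdx2 and Prdx4 by over 2-fold, though Prdx1 was not with housekeeping centring. Of all probe sets 25% were higher in that comparison and 6.68% rose. Prdx2, a cytosolic peroxiredoxin, was at 8.42, 8.33 and 8.37 in Ctrl4h, 9.31 and 9.32 in Ctrl16h and 10.51, 10.30 and 10.47 in Ctrl64h (Ctrl64h minus Ctrl4h, 2.05 ± 0.10, adjusted p = 2.62e-10). It rose in VPA4h to 9.39, 9.72 and 9.47 (1.16 ± 0.10 over Ctrl4h, adjusted p = 1.05e-06), above every Ctrl4h array. In VPA64h, at 10.39, 10.69 and 10.69, it overlapped Ctrl64h (0.17 ± 0.10, adjusted p = 0.292; 0.30 and 0.0474 with housekeeping centring).

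A second probe set of Prdx2, with a lower mean level of 6.32 against 9.67 for that used, gave 0.54 ± 0.13 in VPA4h against Ctrl4h (adjusted p = 0.00651) and 1.30 ± 0.13 in Ctrl64h against Ctrl4h (adjusted p = 5.49e-07). With the mean of the 2 probe sets the VPA4h change was 0.85 and no longer 2-fold. The VPA effects of the probe set used differed between times (-0.99 ± 0.15, adjusted p = 0.000255), and those of the second did not pass (-0.33 ± 0.19, adjusted p = 0.287). Which locus each probe set reads was not settled here.

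Prdx4, the peroxiredoxin of the endoplasmic reticulum, was at 7.52, 7.65 and 7.45 in Ctrl4h, 7.66 and 7.71 in Ctrl16h and 9.47, 9.26 and 9.45 in Ctrl64h, a rise almost wholly after 16 h (Ctrl64h minus Ctrl16h, 1.71 ± 0.11, adjusted p = 9.71e-09). It was at 9.49, 9.42 and 9.26 in VPA64h, against 7.79, 8.05 and 7.84 in VPA4h (1.5 ± 0.10, adjusted p = 5.28e-09). VPA4h was higher than Ctrl4h for Prdx4 (0.35 ± 0.10, adjusted p = 0.0141). Prdx3, the mitochondrial peroxiredoxin, rose 2-fold only with VPA, at 10.27, 10.48 and 10.47 in VPA64h, against 9.20, 9.46 and 9.16 in VPA4h (1.13 ± 0.11, adjusted p = 3.58e-07; 0.98 with housekeeping centring). Its control levels were 9.5, 9.46 and 9.18 in Ctrl4h, 9.94 and 9.73 in Ctrl16h and 10.18, 10.24 and 10.18 in Ctrl64h (Ctrl64h minus Ctrl4h, 0.82 ± 0.11, adjusted p = 8.35e-06). That Prdx3 passed the limit with VPA and not without it does not show a difference, since the VPA effects at the 2 times did not differ by an amount that passed (0.31 ± 0.15, adjusted p = 0.203). Prdx1 was higher by 0.21 ± 0.08 in Ctrl64h than in Ctrl4h (adjusted p = 0.04), which turned to -0.06 with housekeeping centring. A second probe set of Prdx1 gave 0.34 ± 0.09 in the same comparison (adjusted p = 0.0038), and which locus each reads was not settled here either.

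The superoxide dismutases turn superoxide into hydrogen peroxide, and each behaved in its own way. Sod2, the mitochondrial enzyme, fell in control culture (Ctrl64h minus Ctrl4h, -1.34 ± 0.08, adjusted p = 1.22e-09). It was at 10.76, 10.79 and 10.60 in Ctrl4h, 9.97 and 10.13 in Ctrl16h and 9.40, 9.35 and 9.36 in Ctrl64h. Neither step was 2-fold (-0.66 ± 0.09 in Ctrl16h minus Ctrl4h and -0.68 ± 0.09 in Ctrl64h minus Ctrl16h). It fell as well in VPA64h, at 9.55, 9.45 and 9.54, against 10.93, 10.99 and 10.92 in VPA4h (-1.43 ± 0.08, adjusted p = 9.71e-10). Sod3, the extracellular enzyme, had the deepest dip at 16 h.

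Its level was 8.87, 8.64 and 8.47 in Ctrl4h, 6.77 and 6.86 in Ctrl16h and 8.36, 8.55 and 8.27 in Ctrl64h. Sod3 thus fell 3.59-fold in Ctrl16h against Ctrl4h (-1.84 ± 0.13, adjusted p = 1.38e-07), where 1.21% of all probe sets fell, and rose 2.98-fold in Ctrl64h against Ctrl16h (1.57 ± 0.13, adjusted p = 1.32e-07). The Ctrl64h and Ctrl4h arrays overlapped (-0.27 ± 0.11, adjusted p = 0.0558), as did VPA4h, at 8.72, 8.69 and 8.55, with Ctrl4h and VPA64h, at 8.03, 8.31 and 8.01, with Ctrl64h. Sod3, Ephx1, Gpx1 and Gpx3 were lower in Ctrl16h than in Ctrl4h and higher in Ctrl64h than in Ctrl16h. They were the members with this course that had both adjusted p-values under 0.05 and changes over 0.5. Txn1 had the same course with smaller changes (-0.40 ± 0.11, adjusted p = 0.0176, and 0.33 ± 0.11, adjusted p = 0.0251). Its later change did not pass with housekeeping centring (0.28, adjusted p = 0.0755). All these courses rest on 2 arrays at 16 h. The Kupffer cell and macrophage marker with the highest mean, Lyz2, had mean levels of 8.11 in Ctrl4h, 7.24 in Ctrl16h and 9.03 in Ctrl64h. Of the 20 markers of that list none passed 2-fold in Ctrl16h against Ctrl4h. At any size 2 were lower there, beside 7.32% of all probe sets. In Ctrl64h against Ctrl16h Lyz2 and Ctss rose, beside 4.52% of all probe sets. At any size 6 were higher and 2 lower in that step (19.2% and 23.9%). In Ctrl64h against Ctrl4h 1 was higher and 7 were lower at any size (25% and 31.6%). Of 14 stellate cell markers 5 fell and 1 rose in Ctrl16h against Ctrl4h (1.21% and 0.705% of all probe sets). Of 20 sinusoidal endothelial markers 1 fell there. The part of these cell types in the dip was not tested.

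Sod1, the cytosolic dismutase, passed in VPA64h against VPA4h (0.31 ± 0.09, adjusted p = 0.00943, but 0.15 and 0.2 with housekeeping centring) and, only with housekeeping centring, in VPA64h against Ctrl64h (0.35, adjusted p = 0.0152). Catalase, Cat, which splits hydrogen peroxide in peroxisomes, had the opposite course to Sod3. It was at 9.08, 9.09 and 9.14 in Ctrl4h, 9.97 and 9.95 in Ctrl16h and 9.32, 9.5 and 9.49 in Ctrl64h (Ctrl16h minus Ctrl4h, 0.86 ± 0.09, adjusted p = 8.12e-06). In VPA64h it was at 9.82, 9.84 and 10.00, above every Ctrl64h array (0.45 ± 0.08, adjusted p = 0.000846), and in VPA4h at 8.97, 9.12 and 9.02 (-0.06 ± 0.08, adjusted p = 0.709).

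The early step of control culture (4 h to 16 h) and the longer late step (16 h to 64 h) share the 2 Ctrl16h arrays. Whether they differed was not tested. In Ctrl16h against Ctrl4h 1 member rose and 2 fell by 2-fold, beside 0.705% and 1.21% of all probe sets. At any size 16 were higher and 11 lower in that early step (12.8% and 7.32%). With housekeeping centring these counts were 1 and 4, and 9 and 18, and the median of all probe sets moved by -0.21. In Ctrl64h against Ctrl16h 9 rose and 6 fell by 2-fold, beside 4.52% and 2.08% of all probe sets. At any size 23 were higher and 17 lower in that step (19.2% and 23.9%). Hmox1, Gclc, Gclm, Gsr, Gstp1 and Srxn1 were the 6 that fell in it.

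**Figure D4:**
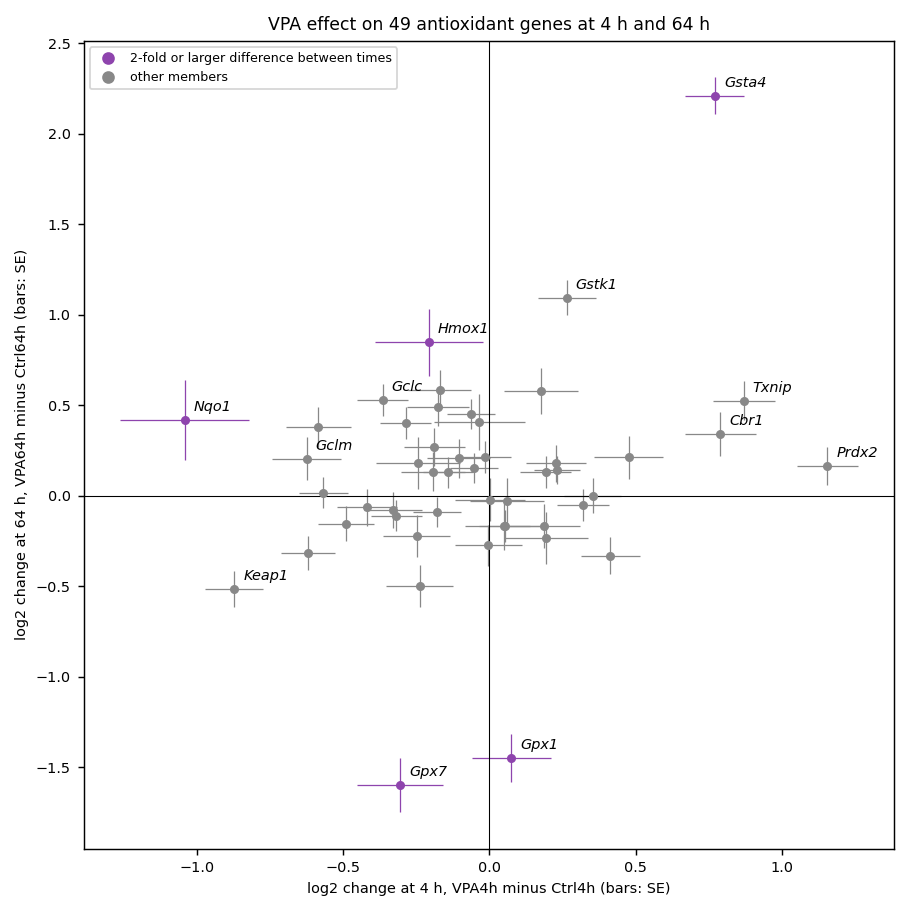
Each point is a measured antioxidant gene, with its log2 change in VPA4h minus Ctrl4h on the horizontal and in VPA64h minus Ctrl64h on the vertical axis, and bars for the SE; purple marks a difference between the 2 effects of at least 2-fold. Gsta4 was higher at both times and Keap1 lower at both, while Nqo1 was lower at 4 h and Gpx1 and Gpx7 at 64 h.

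Set side by side, the VPA effects at 4 h and 64 h ran in opposite directions, both with an adjusted p under 0.05, for Gclc (-0.37 and 0.53), Gss (-0.29 and 0.40), Srxn1 (-0.58 and 0.38) and Gpx4 (0.41 and -0.33). With housekeeping centring Gss at 4 h (adjusted p = 0.0564) and Gpx4 at 64 h (adjusted p = 0.2) no longer passed. The difference between the effects passed at any size for 17 members, 13 upwards and 4 downwards, beside 7.54% and 8.33% of all probe sets. The 13 were Mafg, Hmox1, Nqo1, Gclc, Gclm, Gss, Gsta4, Gsto1, Gstp1, Gstk1, Txnrd1, Srxn1 and Cat, and the 4 were Gpx1, Gpx4, Gpx7 and Prdx2. Of the 7 members that fell in Ctrl64h against Ctrl4h, Hmox1, Gclc and Srxn1 were higher in VPA64h than in Ctrl64h. Maff, Gclm, Gsto1 and Sod2 did not pass there. Of all probe sets 12.8% were higher in VPA64h than in Ctrl64h. That share was not counted among the probe sets that fell in Ctrl64h against Ctrl4h, so whether these members are unusual was not tested. With housekeeping centring Gclm (0.34), Gsto1 (0.41) and Sod2 (0.28) were higher too. These comparisons share the Ctrl64h arrays.

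Other genes linked to NRF2 were read in a list of 28, of which 25 were measured. In Ctrl64h against Ctrl4h 5 rose and 4 fell by 2-fold, beside 6.68% and 3.71% of all probe sets. Nqo2, a quinone reductase related to Nqo1, was at 8.34, 8.11 and 8.27 in Ctrl64h, against 5.70, 5.77 and 5.76 in Ctrl4h (2.50 ± 0.10, adjusted p = 3.43e-11). Blvra, biliverdin reductase, which acts on the product of heme oxygenase, was at 9.61, 9.59 and 9.43 in Ctrl64h, against 7.88, 7.84 and 7.49 in Ctrl4h (1.81 ± 0.11, adjusted p = 1.08e-09).

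Abcc1, an exporter of glutathione conjugates, fell to 8.67, 8.41 and 8.60 in Ctrl64h, against 10.82, 10.53 and 10.55 in Ctrl4h (-2.08 ± 0.14, adjusted p = 4.29e-09). It was lower in VPA4h (-0.43 ± 0.14, adjusted p = 0.0334) and higher in VPA64h (0.42 ± 0.14, adjusted p = 0.0334) than in the control of that time. Akr1b8, an aldo-keto reductase, rose by 1.52 ± 0.11 in Ctrl64h against Ctrl4h (adjusted p = 7.03e-09). None of the 25 passed 2-fold in VPA64h against Ctrl64h, where 4 were higher and 3 lower at any size (12.8% and 11.2% of all probe sets). In VPA4h against Ctrl4h, where 0.555% of all probe sets fell, 1 did, Slc7a11, the cystine importer that feeds glutathione synthesis, named after its values were seen. It was at 6.57, 5.98 and 6.77 in VPA4h, against 8.01, 7.10 and 7.35 in Ctrl4h (-1.04 ± 0.25, adjusted p = 0.00482).

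In a list of 38 further glutathione and thiol genes, 34 were measured, and in Ctrl64h against Ctrl4h 3 rose and 4 fell, beside 6.68% and 3.71% of all probe sets. In VPA64h against Ctrl64h 2 rose and 1 fell (1% and 1.14%), and in VPA4h against Ctrl4h 1 rose and 1 fell (0.867% and 0.555%). Msrb1, a selenium-dependent methionine sulfoxide reductase, had the largest of these changes in control culture and was the gene that fell in VPA64h. It was at 9.57, 9.66 and 9.46 in VPA64h, against 10.51, 10.82 and 10.60 in Ctrl64h (-1.08 ± 0.12, adjusted p = 7.72e-06). In VPA4h it was at 8.95, 9.07 and 8.63, against 8.05, 8.07 and 7.90 in Ctrl4h (0.88 ± 0.12, adjusted p = 4.33e-05). Over control culture it rose 6.22-fold (Ctrl64h minus Ctrl4h, 2.64 ± 0.12, adjusted p = 7.48e-11), and its VPA effects at 64 h and 4 h differed by -1.96 ± 0.17 (adjusted p = 2.63e-06).

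The genes that rose with VPA in this list, Sesn3 and Glrx, are named after their values were seen. Sesn3, a sestrin, was at 8.17, 8.10 and 8.47 in VPA64h, against 7.0, 6.72 and 6.97 in Ctrl64h (1.35 ± 0.11, adjusted p = 4.95e-07). It also rose in VPA4h, at 7.54, 7.70 and 7.59, against 6.55, 6.43 and 6.51 in Ctrl4h (1.11 ± 0.11, adjusted p = 2.49e-06). Glrx, glutaredoxin, which uses glutathione to reduce mixed disulfides, was at 8.76, 8.55 and 8.59 in VPA64h, against 7.68, 7.43 and 7.57 in Ctrl64h (1.08 ± 0.14, adjusted p = 3.01e-05). At 4 h its groups overlapped (-0.28 ± 0.14, adjusted p = 0.186), and the 2 effects differed by 1.36 ± 0.19 (adjusted p = 0.000167).

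Chac1, which degrades glutathione, fell to 7.78, 8.11 and 7.72 in Ctrl64h, against 10.26, 9.86 and 9.69 in Ctrl4h (-2.07 ± 0.15, adjusted p = 9.33e-09). It also fell in VPA4h against Ctrl4h, at 8.80, 8.89 and 8.85 (-1.09 ± 0.15, adjusted p = 4.13e-05). Sesn2, a stress-induced sestrin, fell by 1.83 ± 0.09 on the log2 scale in Ctrl64h against Ctrl4h (adjusted p = 1.48e-10), and Park7, a redox-sensitive chaperone, rose by 1.46 ± 0.10 (adjusted p = 3.59e-09). Of 12 measured NADPH oxidase genes, which make superoxide, none passed 2-fold in either VPA comparison or in Ctrl64h against Ctrl4h, where 1 was higher and 5 were lower at any size (25% and 31.6% of all probe sets). In Ctrl64h against Ctrl16h, where 4.52% of all probe sets rose, 1 did, Cyba, a membrane subunit of the oxidase, named after its values were seen. It was at 9.02, 8.92 and 8.68 in Ctrl4h, 8.78 and 8.57 in Ctrl16h and 9.92, 9.83 and 9.69 in Ctrl64h (Ctrl64h minus Ctrl16h, 1.14 ± 0.14, adjusted p = 8.7e-06).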

How the data were processed

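RNA of 14 cultures was hybridised to Affymetrix Mouse Gene 1.0 ST arrays. The authors deposited log2 values, background-corrected, normalised and summarised per probe set by RMA in Affymetrix Expression Console per the labels; the normalisation forces like distributions, so a shift of most genes would be removed. Of 35557 probe sets, 23410 name at least 1 gene in the platform annotation (21789 exactly 1, 1621 several) and 12147 name none. All 5 groups entered a single limma fit (limma 3.58.1, R 4.3.3; lmFit, eBayes) with 7 contrasts, tested on simulated data before use. The members, gene lists and roles were chosen with earlier results of these data known. For members that passed 2-fold, arrays are given at least for the groups of the comparisons in which they passed. Of each further redox list, up to 4 passing genes with the largest change in VPA64h against Ctrl64h or Ctrl64h against Ctrl4h are named. Slc7a11, Sesn3, Glrx and Cyba were added to these after their values were seen. Replicate numbers are shared by VPA and control arrays, and same-numbered arrays deviated together at both times (correlations 0.14 to 0.28 at 4 h, 0.16 to 0.17 at 64 h), so they were treated as pairs in an alternative. Alternatives covered scaling, eBayes settings, filters, probe set choice, the methods' analysis of variance and leaving out each of 14 arrays. Raw scans were not used here. The number of arrays limits the precision.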

Additional observations from a re-analysis of the deposited data

Results flagged for a closer look

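For 5 members the VPA effect at 64 h differed from that at 4 h by at least 2-fold in a test of the difference itself (limma, Benjamini-Hochberg over all probe sets). The difference was 1.05 for Hmox1 (0.85 at 64 h and -0.21 at 4 h), 1.46 for Nqo1 (0.42 and -1.04) and 1.44 for Gsta4 (2.21 and 0.77). It was -1.52 for Gpx1 (-1.45 and 0.08) and -1.29 for Gpx7 (-1.60 and -0.31). Among the other redox genes it was 1.36 for Glrx (1.08 and -0.28) and -1.96 for Msrb1 (-1.08 and 0.88).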

How the results depend on the processing

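Of 65 changes of named members past 2-fold, 50 passed in every alternative run, 15 lost the 2-fold limit in at least 1 and none reversed. With the mean of all probe sets of a gene, 1 member in place of 2 passed in VPA4h against Ctrl4h. With housekeeping centring, 27 in place of 17 members passed at any size in VPA64h against Ctrl64h, and 5 in place of 3 passed 2-fold in Ctrl16h against Ctrl4h; the median of all probe sets moved by -0.16 in VPA64h against VPA4h and by 0.11 for the difference between VPA effects, and the split at any size in VPA64h against VPA4h was 21 higher and 19 lower, in place of 25 and 16. Leaving out each array in turn gave 1 to 2 members past 2-fold in VPA4h against Ctrl4h (1 without VPA4h replicate 1, where Nqo1 was lost) and 14 to 24 at any size in Ctrl16h against Ctrl4h (14 without Ctrl16h replicate 1); where this left 1 array in Ctrl16h, it was assumed to vary like the other groups. With the replicate number as a block, 2 members passed 2-fold in VPA4h against Ctrl4h and 4 in VPA64h against Ctrl64h, as without it, and 20 and 18 passed at any size, in place of 21 and 17 (Sod2 lost at 4 h, adjusted p = 0.0578, and Mgst3 gained at 64 h, adjusted p = 0.0337). Over all 7 comparisons this block changed 12 calls under 2-fold and 1 at it, Gstm1 in Ctrl64h against Ctrl16h (1.01 in place of 0.96). A block within each time, added after seeing the data, gave 2 and 4 members past 2-fold and changed 4 calls under it (Sod2 at 4 h, and Cbr1, Mgst3 and Sod3 at 64 h). Neither block moved a count by over 1.5 times. The analysis of variance gave no value for the difference between VPA effects or for counts at any size. Probe sets near background limit changes of dim genes.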
